A study of Saccharomyces cerevisiae with 4 samples.

Results

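A total of 315 genomic regions carried a Pho4 peak in both Pho4 libraries and no Cbf1 peak in either Cbf1 library. They are 39.5% of the 798 Pho4 replicate 2 peaks also found in replicate 1, and the 4 peak lists together held 3819 peaks in the region compared. They were chosen by their peak calls. Each member is a peak of Pho4 replicate 2 that overlapped a peak of Pho4 replicate 1 by at least 1 bp and overlapped no peak of either Cbf1 list. Without Pho4 replicate 2, the same rule on all Pho4 replicate 1 peaks gave 481 regions. The comparison was limited to DNA that all 4 lists reach. This is the 7 chromosomes I, II, III, IV, V, VI and IX in full, with chromosome VII as far as position 856779, in all 5035657 bp or 41.7% of the nuclear genome.

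The assay was ChIP-nexus, in which chromatin is immunoprecipitated and an exonuclease then digests each DNA fragment up to the crosslinked protein. The 2 Pho4 libraries came from W303 Z1441 yeast (Saccharomyces cerevisiae) with the genotype PHO4::9myc::TRP1, and the 2 Cbf1 libraries from W303 Z1497 yeast with the genotype CBF1::9myc::TRP1. Each factor is thus represented by 1 tagged line, and the tag was pulled down with the antibody ab9E10 in all of them. All 4 cultures grew in rich YPD medium at 25 °C, then spent 2 h in phosphate-free medium and were crosslinked with formaldehyde, so the Cbf1 libraries share the phosphate starvation. No input, untagged or phosphate-rich library was used here, and nothing in the labels says whether the replicates were separate cultures. The lists hold no read totals, so the depth of the libraries is unknown. In the compared DNA the Pho4 lists held 1105 (replicate 1) and 941 (replicate 2) peaks, and the Cbf1 lists held 920 (replicate 1) and 853 (replicate 2).

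Pho4 is the basic helix-loop-helix activator of the yeast phosphate (PHO) pathway. In phosphate-rich cells the cyclin-CDK pair Pho80-Pho85 phosphorylates Pho4 and keeps it out of the nucleus. In starved cells Pho4 enters the nucleus and, with the homeodomain protein Pho2 at many genes, turns on phosphatases, phosphate transporters and polyphosphate enzymes. Cbf1 belongs to the same protein family and is known for its place at centromeres and at the sulfur (MET) genes. Both factors recognise the E-box CACGTG. A T directly 5′ of that core is known to hinder Pho4 and is part of the Cbf1 consensus, and Pho4 is also known to use the variant CACGTT at PHO5.

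The strongest members are shown with the DNA under their summits, because the base next to the core differs from that under Cbf1 peaks without Pho4. The sequences are RefSeq R64 (sacCer3) with coordinates 1-based, read on the plus strand unless stated, with the core in capitals. The first set holds E-box members of high fold, from an intergenic region for PHO89 and TFB1/SUM1 and from gene bodies for VTC5, STP4 and ATG18.
PHO89, chrII:798825-798860: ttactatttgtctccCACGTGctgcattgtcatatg
VTC5, chrIV:623288-623323: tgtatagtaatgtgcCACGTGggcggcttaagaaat
STP4, chrIV:366754-366789: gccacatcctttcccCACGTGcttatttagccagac
TFB1/SUM1, chrIV:1084800-1084835: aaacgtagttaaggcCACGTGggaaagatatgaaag
ATG18, chrVI:195194-195229: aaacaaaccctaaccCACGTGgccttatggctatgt

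The PHO5 member is shown over a longer stretch, chrII:431184-431328, since it holds both kinds of core. PHO5 lies on the minus strand to the left of it. The capitals mark the E-box, which lay 39.5 bp from the summit, and the variant, which reads AACGTG here and CACGTT on the minus strand. The variant lay more than 50 bp from the summit, outside the window used for the motif counts.
PHO5: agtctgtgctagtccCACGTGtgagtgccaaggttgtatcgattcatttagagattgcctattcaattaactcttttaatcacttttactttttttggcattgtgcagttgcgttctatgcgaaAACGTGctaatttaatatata

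The next set holds members with no E-box and a CACGTT within 50 bp of the summit, each written on the strand that reads CACGTT. AFR1 is on the minus strand, and GAT1, REG2, PHO13 and PHO11 are on the plus strand.
AFR1, chrIV:616531-616566: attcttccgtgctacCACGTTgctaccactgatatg
GAT1, chrVI:95954-95989: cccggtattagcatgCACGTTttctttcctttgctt
REG2, chrII:338506-338541: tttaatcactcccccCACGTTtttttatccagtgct
PHO13, chrIV:32060-32095: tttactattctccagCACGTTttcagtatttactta
PHO11, chrI:225029-225064: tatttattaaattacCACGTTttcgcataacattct

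The last set gives the only E-box members whose nearest core has a T flank, AGP2 and GLE1, and for contrast the E-boxes under the strongest Cbf1 peaks that have an E-box and no Pho4 peak, at DRS2, FAB1 and SYF2. In the Cbf1 peaks the T stands 5′ of the core on both strands, so that the plus strand reads T before the capitals and A after them.
AGP2, chrII:501248-501283: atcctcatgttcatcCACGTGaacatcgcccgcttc
GLE1, chrIV:89387-89422: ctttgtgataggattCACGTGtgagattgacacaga
DRS2, chrI:99862-99897: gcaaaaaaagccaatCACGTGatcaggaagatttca
FAB1, chrVI:184754-184789: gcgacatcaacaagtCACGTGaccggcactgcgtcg
SYF2, chrVII:751106-751141: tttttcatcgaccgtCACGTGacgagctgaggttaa

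The signal of the members covered a wide range and had a long upper tail. Signal is given as the authors' fold enrichment, the height at the summit divided by the local background, and it was part of the choice of members through the peak calls, so it is a description with no test. The fold ran from 1.81 through a median of 3.11 to 32.3 in Pho4 replicate 1, and from 1.84 through a median of 3.27 to 31.5 in Pho4 replicate 2. The 483 replicated Pho4 peaks that overlapped a Cbf1 peak had medians of 4.36 and 4.65. Over all Pho4 peaks of the compared DNA the medians were 3.09 in replicate 1 and 3.43 in replicate 2, and 48 members were above 5-fold in both libraries and 18 above 10-fold. The members' median −log10 q was 17.2 in Pho4 replicate 1 and 9.39 in Pho4 replicate 2, against 31.7 and 17.7 for the Pho4 peaks with Cbf1. Across the 315 members, log2 fold in the 2 libraries had a Pearson r of 0.857. This r is a description across peaks that share a strain and a genome, and 22 members share their replicate 1 peak with another member.

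The member upstream of PHO89, the sodium-coupled phosphate transporter of the plasma membrane, had the highest mean fold rank, the mean of a peak's percentiles in the 2 Pho4 lists. Its fold was 32.3 in Pho4 replicate 1 and 31.5 in Pho4 replicate 2, with the summit 335 bp upstream of the gene at chrII:798693-799173. The member upstream of PHO5, the main secreted acid phosphatase, followed with 24.9 and 21.3 fold in replicates 1 and 2 and its summit 290 bp upstream. The nearest Cbf1 peak was 3749 bp from the PHO89 peak and 2719 bp from the PHO5 peak.

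Most of the other strong members were at genes outside the phosphate lists, and 9 of the 20 members of highest rank had their summit inside a coding gene. Gene bodies outside promoters make up 66.5% of the positions of the region. VTC5, a subunit of the vacuolar polyphosphate polymerase, held its summit 1186 bp inside the gene, with 21.4 and 21.5 fold in replicates 1 and 2. STP4, a zinc finger protein, held it at 98.2% of its length from the start, near the 3′ end, with 18.5 and 17.3 fold. SHE9, a protein of the mitochondrial inner membrane, had 13.1 and 20.6 fold, a wider gap between libraries than at VTC5 or STP4. Summits in gene bodies also marked ATG18, a lipid-binding autophagy protein, with 13.5 and 13.7 fold, and ICE2, a protein of the endoplasmic reticulum membrane, with 10.5 and 17.5 fold. VPS8, a vacuolar sorting subunit, had 11.5 and 13.9 fold. The remaining 3 of these 9 were CYC3, the cytochrome c heme lyase, PAN1, an endocytosis protein, and URH1, the uridine nucleosidase, with folds between 9.97 and 11.8 in both libraries. Each of these 9 had an E-box within 50 bp of the summit.

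Promoter members among the 20 were fewer. GAT1, a GATA-type activator of nitrogen genes, had 17.6 and 13.3 fold in replicates 1 and 2 and a summit 7 bp upstream of its start in a peak 1043 bp wide. Its CACGTT, at chrVI:95969-95974, lay just inside the gene, which starts at 95966. AFR1, a protein of the mating projection, had 16.8 and 18.8 fold, and REG2, a subunit of the Glc7 phosphatase, had 15.4 and 11.8. The region between TFB1, a subunit of the TFIIH complex, and SUM1, a repressor of meiotic genes, had 14.2 fold in both. PDR15, an ABC transporter gene, had 12.4 and 10.2 fold and is the 1 member of these 20 with neither an E-box nor CACGTT near the summit. PHO13, a phosphatase gene, had 10.9 and 10.7 fold.

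The other 3 of the 20 lay outside genes and outside the 500 bp upstream of any gene. One was 278 bp past the 3′ end of YPT32, a Rab GTPase gene, with 16.5 and 15.8 fold in replicates 1 and 2. One was 341 bp from the 3′ end of FLO11, the flocculin gene, with 11.1 and 11.5 fold. The third was 92 bp from the tRNA gene SUP54, with 14.5 and 9.71 fold. The 20 members thus divide into 8 promoters, 9 gene bodies and these 3 places.

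**Figure D1:**
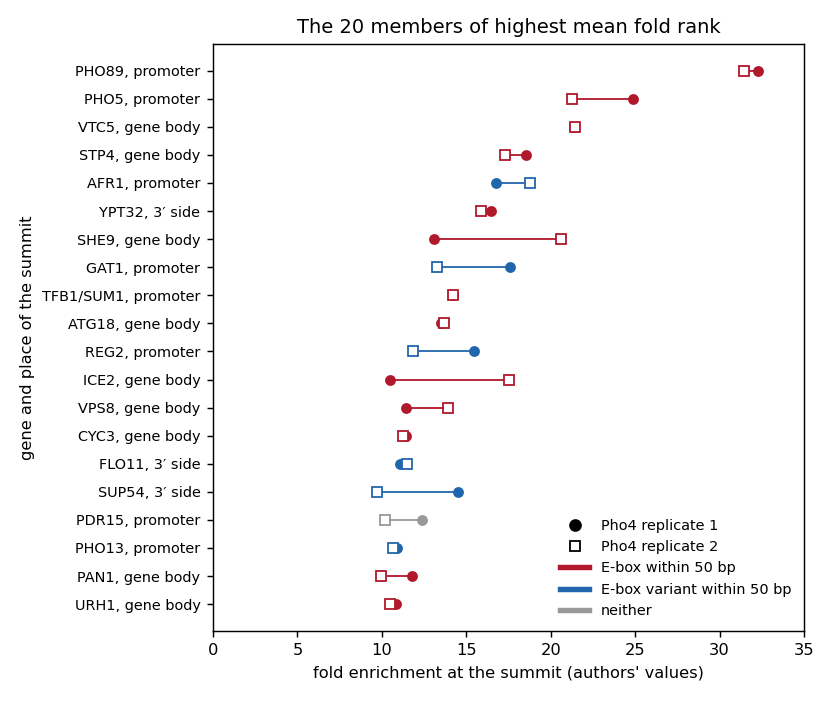
Fold enrichment at the summit (horizontal axis, authors' values) of the 20 members of highest mean fold rank, with Pho4 replicate 1 as filled circles and Pho4 replicate 2 as open squares. The 2 values of a member lie close together at most members, PHO89 stands at 32.3 and 31.5, and 13 members have an E-box near the summit, 6 the variant and 1 neither.

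An E-box was near the summit of a minority of the members. The centre of a CACGTG, read on either strand since it is its own reverse complement, was within 50 bp of the summit in 45 of 315 members, or 14.3% (95% Wilson interval 10.9 to 18.6). The share was 161 of 483, or 33.3% (29.3 to 37.7), in the Pho4 peaks with Cbf1, and 24 of 189, or 12.7% (8.68 to 18.2), in the replicated Cbf1 peaks without Pho4. All positions of the region had an E-box within that distance in 0.776% of cases. Intervals cover counting error over peaks only, since peaks of 1 list share a library. A match is a description of the letters there, and no match says only that these letters are not in the window. Where an E-box was present, its centre lay a median of 12.5 bp from the summit, and within 10 bp at 20 of the 45. The share among members was 25.6% when only the 50% of peaks with the highest −log10 q were kept per list, and 23.2% where peaks had to share 50% of both intervals.

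The base 5′ of the core differed between the members and both other sets. A T stood there on at least 1 strand at 2 of 45 members, or 4.44% (1.23 to 14.8), at 78 of 161 Pho4 peaks with Cbf1, or 48.4% (40.9 to 56.1), and at 24 of 24 Cbf1 peaks without Pho4. C was the most frequent flank of the members, at 53.3% of their 90 flanks, against 18.6% in the Pho4 peaks with Cbf1 and 22.3% over all E-boxes of the region. The T flank share of the members was 10.5% without Pho4 replicate 2, 8.82% without Cbf1 replicate 2 and 0% with the 50% of peaks of highest −log10 q. It was 43.8% where peaks had to share 50% of both intervals. That rule also admits Pho4 peaks with a smaller overlap with Cbf1, and all T-flanked E-boxes beyond the 2 above lie in such peaks. The share was 8.33% when only a Cbf1 peak in both Cbf1 lists excluded a member. The pair of T-flanked members was weak. AGP2, a carnitine transporter gene, had 2.65 and 2.72 fold in replicates 1 and 2, and GLE1, a gene of mRNA export, had 2.12 and 2.22 fold, both with the summit in the gene body.

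Read from the DNA side, 45 of the 399 E-boxes of the region had a member summit within 50 bp, a background of 11.3%. Among the 170 E-boxes with no T flank, 43 had a member, or 25.3%, and 84 had a Pho4 peak with Cbf1. Among the 182 with a T on 1 strand, 2 had a member, 75 a Pho4 peak with Cbf1 and 8 a Cbf1 peak alone. Among the 47 with a T on both strands, none had a member, 9 had a Pho4 peak with Cbf1 and 16 a Cbf1 peak alone. Flanks without T also differed among themselves. E-boxes with C on both strands had a member at 14 of 27 and a Pho4 peak with Cbf1 at 6. Those with G on both strands had a member at 1 of 14, at PAN1, and a Pho4 peak with Cbf1 at the other 13.

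**Figure D2:**
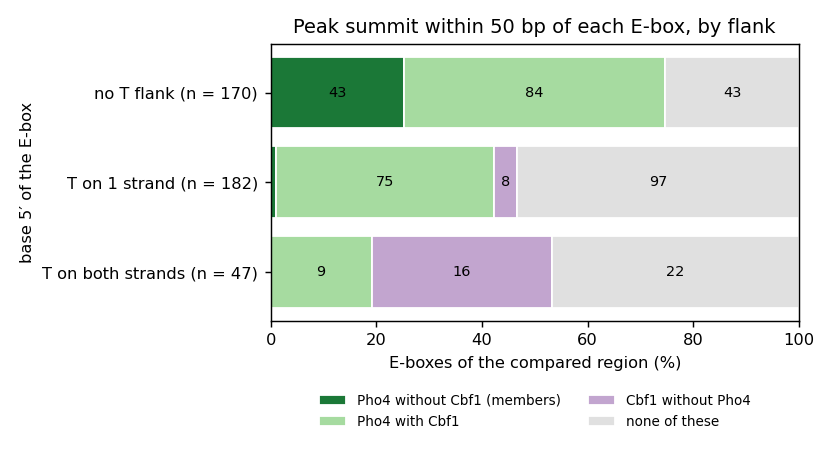
Share of the 399 E-boxes of the region (horizontal axis, percent) with a peak summit of each kind within 50 bp, by the number of strands with a T directly 5′ of the core, with counts in the bars. Members (dark green) hold 43 of 170 E-boxes without a T flank, 2 of 182 with a T on 1 strand (the thin bar with no printed count) and none of 47 with a T on both.

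The flanks were also counted within groups of Pho4 signal. All 798 replicated Pho4 peaks were split into 4 equal groups by mean fold rank. In the highest group T-flanked E-boxes made up 0 of 19 in members and 31 of 91 in peaks with Cbf1, and in the next group 0 of 12 and 24 of 36. They made up 0 of 7 in members and 15 of 21 in peaks with Cbf1 in the group after that, and 2 of 7 and 8 of 13 in the lowest, where the 95% intervals of 8.22% to 64.1% and 35.5% to 82.3% overlap. Folds were not matched within a group. The E-box share of the members was the lower one in each of the 4 groups, but the 95% intervals overlapped in each. It was 45.2% (31.2 to 60.1) of members and 57.6% (49.8 to 65.0) of peaks with Cbf1 in the highest group. In the lowest these were 6.14% (3.01 to 12.1) and 15.3% (9.16 to 24.4).

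Over whole libraries the contrast was tested with peaks that overlap no peak of the other factor, the exclusion that also defines the members. The permutation reassigned the 4 finished values and did not redo that exclusion. It is therefore no independent support for the flanks of the members. In the 2 Pho4 libraries a T flank was present at 8.52% ± 2.83 of the E-boxes in such peaks, against 100% ± 0 in the 2 Cbf1 libraries (SD, n = 2 each), a difference of −91.5 percentage points. An exact two-sided permutation test over the 4 libraries gave p = 0.333, the smallest p that this design allows, and 0.333 after Benjamini-Hochberg adjustment over the 3 differences tested. An E-box was within 50 bp of the summit in 11.5% ± 0.465 of the Pho4 peaks and 7.19% ± 1.68 of the Cbf1 peaks, and the summit was within 500 bp upstream of a gene in 52.6% ± 0.0311 and 18.1% ± 0.617 (exact permutation p = 0.333 for each, adjusted 0.333, n = 2 each). In all 3 measures the values of the 2 Pho4 libraries and the 2 Cbf1 libraries did not overlap. The E-box difference of 4.33 percentage points was 1.47 without Cbf1 replicate 1 and 9.24 without Cbf1 replicate 2. The promoter difference of 34.5 percentage points was 14.8 with promoters of 250 bp. Factor and strain cannot be told apart, since each tag was in its own strain.

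The variant CACGTT was near more members than the E-box was. It was searched on both strands, and it does not overlap CACGTG as a match. Of the 270 members without an E-box, 77 had a CACGTT within 50 bp of the summit, or 28.5% (23.5 to 34.2), against 3.21% of all positions of the region and 3.34% of promoter positions. The variants CACGTA and CACGTC were near 5 and 10 of these 270 members, or 1.85% and 3.70%, against 2.10% and 1.83% of all positions. As groups of all members, 45 had an E-box, 77 had CACGTT alone and 193 had neither. In the Pho4 peaks with Cbf1 the CACGTT group was 54 of 483, or 11.2% (8.67 to 14.3), against 24.4% (20.0 to 29.5) in the members.

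From the DNA side, 79 of the 1641 CACGTT sites of the region had a member within 50 bp of them, a background of 4.81% (3.88 to 5.96). A Pho4 peak with Cbf1 was near 66 of the 1641, or 4.02% (3.17 to 5.08). The base 5′ of CACGTT in the 77 members was C at 42.9% and G at 37.7%, against 25.1% and 19.4% over all CACGTT sites. In the 54 Pho4 peaks with Cbf1 of the CACGTT group it was C at 31.5% and G at 29.6%, also above all sites. A member was near 33 of 412 sites with C there and 31 of 318 with G, against 8 of 386 with A and 7 of 525 with T.

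Motifs were more frequent at the stronger members. With the members split into 4 groups by rank, 24 of the highest 79 had an E-box, 28 had CACGTT and 27 had neither, whereas of the lowest 78 the counts were 3, 15 and 60. The median fold in replicates 1 and 2 was 4.53 and 4.49 with an E-box, 3.29 and 3.53 with CACGTT, and 2.90 and 3.12 with neither. Of the 18 members above 10-fold in both libraries, 12 had an E-box. Within the Pho4 peaks with Cbf1, by comparison, E-boxes without a T flank had medians of 11.2 and 11.9 fold, above the 4.55 and 4.83 of the 43 such members.

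**Figure D3:**
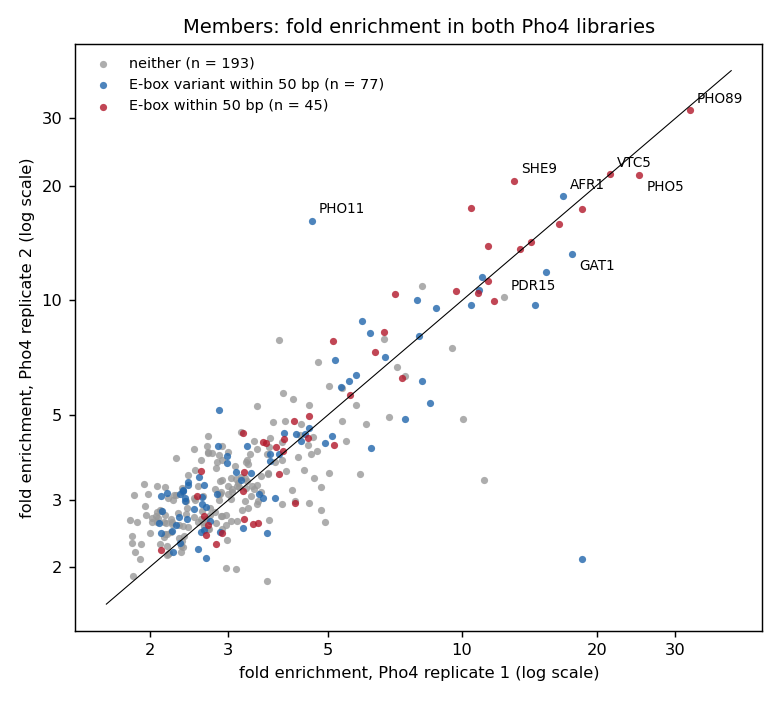
Fold enrichment of the 315 members in Pho4 replicate 1 (horizontal, log scale) and Pho4 replicate 2 (vertical, log scale), coloured by the motif within 50 bp of the summit; the line marks equal values. Most members lie below 5-fold near the line with neither motif, while 12 of the 18 above 10-fold in both have an E-box, and PHO11 (4.61 and 16.2), KNH1 (18.5 and 2.10) and INO80 (11.2 and 3.38) lie away from the line.

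The members with neither motif were mostly in promoters. Of the 193, 126 had the summit within 500 bp upstream of a gene. Further motifs were counted in the 170 promoter members without an E-box. Of these, 44 had CACGTT, so the shares are not those of members with neither motif alone. The stress-response element AGGGG, searched like all motifs here on both strands, has no shared match with either core. It was within 50 bp of the summit in 37 of the 170, or 21.8% (16.2 to 28.6), against 8.41% of promoter positions. Over all places it was near 14.6% of all members and 10.6% of the Pho4 peaks with Cbf1. Other motifs stood nearer to their promoter share in the same 170, and each of these can share end bases with a core. GATAAG, bound by GATA factors, was near 4.71% against 5.32% of promoter positions, TTACCCG, bound by Reb1, near 2.94% against 1.98%, and TGACTC, bound by Gcn4, near 2.94% against 2.93%. TATAAA was near 11.2% against 16.5%, and CTTCC, bound by Gcr1, near 26.5% against 19.9%.

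**Figure D4:**
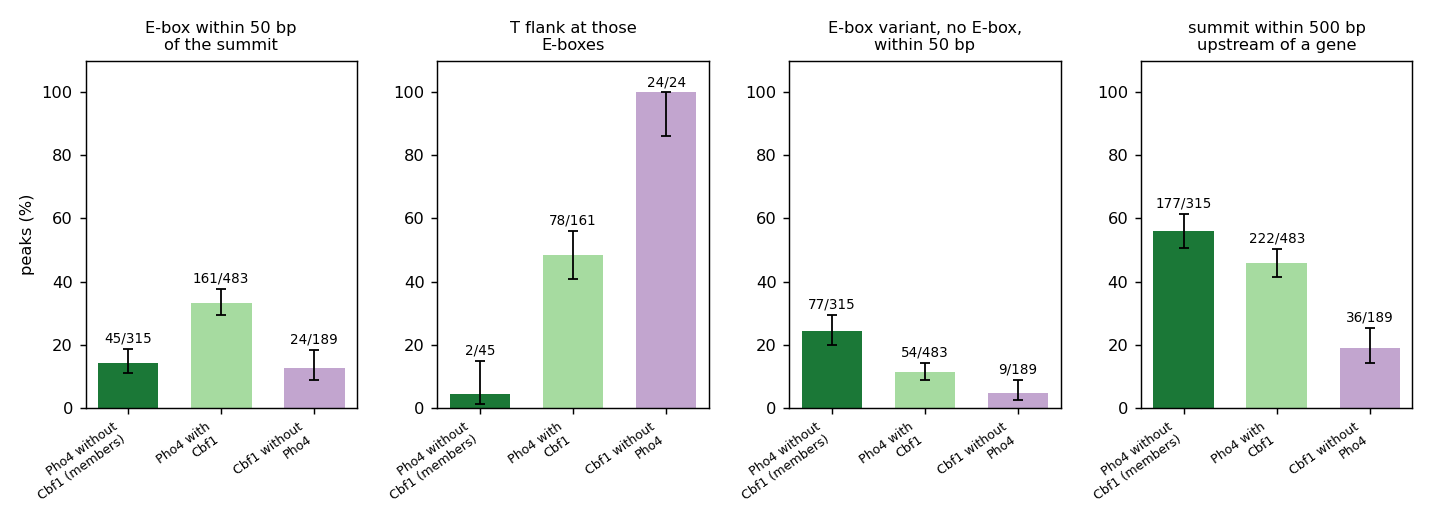
Percent of peaks in 3 sets (members, replicated Pho4 peaks with Cbf1, replicated Cbf1 peaks without Pho4) with, from left to right, an E-box near the summit, a T flank at that E-box, the E-box variant without an E-box, and a summit within 500 bp upstream of a gene; error bars are 95% Wilson intervals and labels are counts. The members have the lowest share of T flanks, 2 of 45, and the highest shares of the variant, 77 of 315, and of promoter summits, 177 of 315.

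By position, the members were mainly upstream of genes, but those with an E-box were not. The summit was within 500 bp upstream of a protein-coding gene in 177 of 315 members, or 56.2% (50.7 to 61.6), while such positions make up 21.2% of the region. In the Pho4 peaks with Cbf1 it was there in 222 of 483, or 46.0% (41.6 to 50.4). Within 250 bp upstream the share of the members was 25.7%. Another 99 members, or 31.4%, had the summit in a gene body, against 66.5% of positions in gene bodies outside promoters. A further 38 were in other intergenic DNA and 1 in a gene that codes for no protein. In promoters the distance to the gene ran from 7 bp through a median of 267 bp to 500 bp, and 34 members stood between divergent starts.

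Of the 45 E-box members, 35 had the summit in a gene body and 7 in a promoter, or 77.8% (63.7 to 87.5) and 15.6% (7.75 to 28.8). Gene bodies outside promoters make up 66.5% of all positions of the region, which lies inside the first interval, and promoters make up 21.2%. In the Pho4 peaks with Cbf1 that had an E-box, 42.2% (34.9 to 50.0) were in gene bodies and 45.3% (37.8 to 53.1) in promoters. The 132 E-boxes in promoters had a member near 7 and a Pho4 peak with Cbf1 near 80. The 216 in gene bodies had a member near 35 and a Pho4 peak with Cbf1 near 66. Counting only E-boxes with no T flank, 33 of 113 in gene bodies and 7 of 41 in promoters had a member. The 7 promoter members with an E-box were at PHO89, PHO5, TFB1/SUM1, TUP1/YCR085W, FMN1, CCR4 and FRD1. TUP1, a corepressor gene, had 6.39 and 7.32 fold in replicates 1 and 2, and the last 3 had between 2.58 and 4.24 fold.

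**Figure D5:**
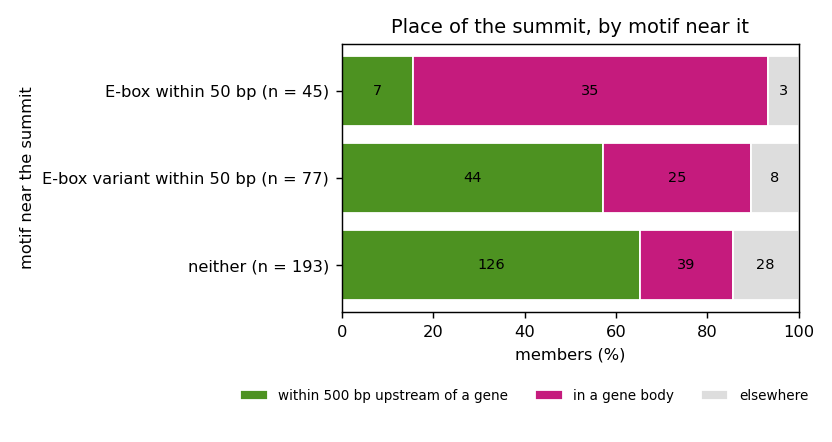
Place of the summit (percent of members, counts in the bars) for members with an E-box within 50 bp, with the E-box variant and with neither. Gene bodies hold 35 of 45 summits with an E-box and 39 of 193 with neither motif, and promoters hold 7 of 45 and 126 of 193.

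The members were narrower than the replicated Pho4 peaks with Cbf1, with a median width of 250 bp against 342 bp. Any overlap with a Cbf1 peak excluded a member, so a wider interval was more easily excluded by the rule itself. Width also went with fold, with a median of 358 bp in the members of highest rank and 194.5 bp in those of lowest rank (4 groups). The widths and the shares by width are therefore descriptions with no test. With the replicated Pho4 peaks split into 4 groups by width, members made up 58.5% of the narrowest group and 23.6% of the widest. The T flank share was lower in the members in each of these 4 groups, at 1 of 11 against 15 of 24 in peaks with Cbf1 in the narrowest and 0 of 10 against 18 of 44 in the widest. The summit stood a median of 125 bp from the start of the peak, at 49.3% of its width. Summits of the 2 libraries were a median of 26 bp apart and at most 50 bp apart in 231 of 315 members.

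The nearest Cbf1 peak was a median of 1633 bp away, with a range of 9 to 14196 bp, and was within 250 bp of 40 members. The lowest fold of the Cbf1 peaks listed in the region was 1.44 and 1.56 in Cbf1 replicates 1 and 2, and the lowest −log10 q 1.40 and 1.46. Cbf1 signal at a member that was not called as a peak is not seen in these lists. It need not lie below these folds. The replicate 1 peak of 12 members overlapped a Cbf1 peak although the replicate 2 interval did not. Only 3 members, at SUP54, UBP9 and MNC1, were within 250 bp of a tRNA gene, or 0.952% (0.324 to 2.76), against 8.49% (6.32 to 11.3) of the Pho4 peaks with Cbf1 and 1.41% of all positions. Within 30000 bp of a chromosome end the share was 8.57%, near the 8.94% of positions there.

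A few members rest on the edge of the rule. ATP17, AGP1 and DAL7 were members with overlaps of 4, 10 and 15 bp with a replicate 1 peak, and FCY21, SED1 and FMT1 with gaps of 9, 17 and 20 bp to a Cbf1 peak. Just outside were a peak at PRB1/HHY1, another at PRB1 and one at CPR1/RPA14, which overlapped a Cbf1 peak by 9, 21 and 22 bp. Just outside on the replicate side were peaks of replicate 2 at YPT1, TPS1 and RSC3, with gaps of 4, 37 and 77 bp to a replicate 1 peak. The fold in Pho4 replicate 1 is that of the whole paired peak. At KNH1 it was 18.5, against 2.10 in replicate 2, and the paired peak has its summit in STP4, 548 bp away, and at INO80 it was 11.2, against 3.38, with the paired summit 328 bp away.

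Members stood upstream of 213 of the 2507 protein-coding genes of the region, a background of 8.5%. A Pho4 peak with Cbf1 stood upstream of 283 of the 2507. The gene lists are read beside these shares. Of the 7 phosphatase genes in the region, 4 had a member within 500 bp upstream, namely PHO5, PHO11, PHO13 and PPN1, and 1, the nucleotidase gene PHM8, had a Pho4 peak with Cbf1, of 32.2 and 25.7 fold. PHO3, an acid phosphatase beside PHO5, and PHO8, the vacuolar alkaline phosphatase, had no replicated Pho4 summit there. Beyond its 500 bp, PHO8 had a Pho4 peak with Cbf1 with the summit 539 bp upstream, of 37.1 and 32.5 fold in replicates 1 and 2.

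PHO11, a secreted acid phosphatase gene near the end of chromosome I, had 4.61 fold in Pho4 replicate 1 and 16.2 in Pho4 replicate 2. PHO11 has a near-identical copy elsewhere in the genome, between which reads may be split, so its values are uncertain. The member at PPN1, the endopolyphosphatase gene, stood between divergent starts, 350 bp from PPN1 and 347 bp from YHP1. It had 5.38 and 4.84 fold in replicates 1 and 2 with neither motif within 50 bp of the summit. PHO5 also held a weak member inside the gene, of 2.11 and 2.30 fold.

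Of the 5 phosphate transport genes only PHO89 had a member, while PHO87, SND3 (formerly PHO88) and SYG1 had Pho4 peaks with Cbf1 and GIT1 had none in its 500 bp. The summit of a Pho4 peak with Cbf1 stood 503 bp upstream of GIT1, with 39.1 and 38.3 fold. PHO87, a low-affinity transporter gene, had 36.5 and 36.2 fold, above any member. None of the 3 polyphosphate genes had a promoter member. VTC1 and VTC2 had Pho4 peaks with Cbf1, of 24.7 and 23.1 fold at VTC1 and 36.8 and 35.5 at VTC2, and VTC5 had the gene-body member described above and a weaker one 567 bp upstream, of 2.60 and 2.48 fold.

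The 5 genes of PHO signalling, PHO2, PHO4, PHO92, KCS1 and TVS1, had no replicated Pho4 summit in their 500 bp. Inside the gene, KCS1 had a Pho4 peak with Cbf1 of 39.0 and 39.8 fold, 398 bp from its start, and TVS1 had one of 22.8 and 23.5 fold, 666 bp from its start. Of the 3 further phosphate-responsive genes, PHM6 and GPP2 had Pho4 peaks with Cbf1 and GPP1 had no such summit, with a Pho4 peak with Cbf1 of 12.8 and 12.1 fold 700 bp upstream. In total, the phosphate lists held 5 genes with a promoter member, or 1 with promoters of 250 bp. With 500 bp, these were 57.1% of the 7 phosphatase genes and 20% of the 5 transport genes, beside the 8.5% background. The other phosphate lists had 0%.

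Among the 13 sulfur genes, 9 had a Pho4 peak with Cbf1 upstream and 1 had a member, the sulfate permease gene SUL1, with 2.36 and 3.22 fold in Pho4 replicates 1 and 2. MET30, a ubiquitin ligase subunit of the sulfur pathway, held 3 weak members in its gene body, with at most 2.90 fold in either library. MET6 and SAM2 each held a weak gene-body member besides a Pho4 peak with Cbf1 in the promoter. The share of sulfur genes with a promoter member was 7.69%, near the 8.5% background.

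Of the 13 heat shock and stress genes, 4 had a member upstream. HSP42, a small heat shock protein gene, had 5.78 and 5.33 fold in replicates 1 and 2, and CTT1, the cytosolic catalase gene, had 5.38 and 5.89. HSP26, another small heat shock protein gene, had 2.84 and 4.16, and HSP31, a stress chaperone gene, had 2.29 and 3.87. The share was 30.8%, beside the 8.5% background, and HSP26 was the 1 of these 4 with a CACGTT within 50 bp of the summit. Pho4 peaks with Cbf1 stood upstream of 3 of the 13, beside 283 of the 2507 protein-coding genes of the region. They had 26.2 and 23.2 fold at SSA1, 4.29 and 4.66 at TPS1, and 4.35 and 5.07 at GSY1.

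In sugar metabolism, 2 of 10 glycolysis and fermentation genes and 2 of 8 hexose transport genes had a member upstream. These are 20% and 25%, beside the 8.5% background. HXK2, the main hexokinase gene, had 3.10 and 3.68 fold, and PDC6, a pyruvate decarboxylase gene, had 3.29 and 4.16. HXT13, a gene of the hexose transporter family with close relatives, had 6.68 and 7.93 fold, and RGT2, a glucose sensor gene, had 4.01 and 4.83. Pho4 peaks with Cbf1 stood upstream of 5 of the 10 and of 1 of the 8, beside 283 of the 2507 protein-coding genes. The 1 was HXT3, and the 5 included HXK1 and GLK1, the genes of the other kinases of glucose. Their peaks had 22.7 and 24.1 fold at HXK1 and 15.5 and 17.9 fold at GLK1. The rest of the 5 were PGI1, TPI1 and ADH5.

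Of the 57 ribosomal protein genes, 2 had a member upstream, or 3.51% beside the 8.5% background, with RPL31A at 2.53 and 3.00 fold and RPL23B at 3.30 and 3.82. Pho4 peaks with Cbf1 stood upstream of 14 of them, beside 283 of the 2507 protein-coding genes of the region. None of the 6 histone genes had a promoter member and all 6 had a Pho4 peak with Cbf1, with the genes of each divergent pair sharing the same peak. These peaks ran from 2.21 and 2.73 fold in replicates 1 and 2 at HHT1/HHF1 to 5.58 and 5.61 at HTA2/HTB2. HTA2 and HTB2 also each held a weak member in the gene body, with at most 3.08 fold. With 2 libraries a factor and lists chosen with earlier results known, these counts are descriptions, and no list was tested against another.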

How the data were processed

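Each library had its own peak list, called by the authors without pooling. Per the submitters' processing notes, the tools were cutadapt 1.8.1, Bowtie 1.1.2, SAMtools 1.3.1, bedtools and MACS2 2.1.1 on sacCer3. The sources used here do not give their settings. The deposited lists give the authors' fold enrichment at the summit over local background (a ratio), the authors' −log10 p and −log10 q, the summit offset, and the authors' score, which was not used. Positions were made 1-based. Genes, motifs and sequences came from the RefSeq R64 genome of strain S288C, from which W303 may differ.

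Overlaps and motifs were computed with Python 3.11.15, NumPy 2.4.6 and SciPy 1.17.1 and tested on simulated peaks. Promoter means up to 500 bp upstream of a protein-coding gene, and takes precedence over gene bodies. Where several replicate 1 peaks overlap a member, the longest overlap gives its fold. Samples were grouped by title.

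The members, gene lists and motifs were chosen with earlier results of these data known. Named genes are the 20 members of highest rank, the phosphate lists, the highest members without an E-box, with a T flank and in gene bodies, members at the edge of the rule, and listed genes with a member. Further genes (such as KNH1, INO80, UBP9, MNC1, TUP1, FMN1, CCR4, FRD1 and genes of Pho4 peaks with Cbf1) were named after their values were seen.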

Additional observations from a re-analysis of the deposited data

How the results depend on the processing

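When peaks had to share 50% of both intervals, 414 regions were members, 23.2% of them had an E-box within 50 bp, 43.8% of those E-boxes had a T flank, and the median fold, averaged over the 2 Pho4 libraries, was 3.57 in place of 3.19. The replicate part of this rule can only remove members. The regions it adds are thus Pho4 peaks that overlap a Cbf1 peak too little to be excluded. Of the T-flanked E-boxes, at most the 2 of the reported members lie in peaks that overlap no Cbf1 peak. When only a Cbf1 peak in both Cbf1 lists excluded a member, 446 regions were members and 8.33% of their E-boxes had a T flank. Keeping, in each list, the 50% of peaks with the highest −log10 q left 195 members, with an E-box at 25.6%, a T flank at 0% of the E-boxes and a median fold of 5.09. The median fold was 3.35 with replicate summits at most 50 bp apart, and 3.38 when only a Cbf1 peak in both Cbf1 lists excluded a member. The E-box share was 10.8% in a 25 bp window. A promoter of 1000 bp held 74.3% of the summits and one of 250 bp held 25.7%, and with 250 bp the number of phosphate genes with a member was 1 in place of 5.

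With 1 library left out at a time, members numbered 365 to 481, with 481 when Pho4 replicate 2 was left out and every Pho4 replicate 1 peak without Cbf1 counted. The E-box share was 11.2% to 18.6%, the T flank share 4.17% to 10.5%, the promoter share 52.6% to 55.3%, the median fold 2.70 to 3.32, and the phosphate genes 5 to 6. The difference between Pho4 and Cbf1 in E-box share was 1.47 to 9.24 percentage points, 1.47 without Cbf1 replicate 1 and 9.24 without Cbf1 replicate 2. The other 2 differences were −93.5 to −85.7 for T flanks and 31.4 to 34.3 for promoters. With all 4 libraries, the promoter difference of 34.5 was 14.8 with promoters of 250 bp and 24.2 with the 50% of peaks of highest −log10 q.

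With the replicate number as a replicate block, the differences were the same by construction, at −91.5, 4.33 and 34.5 percentage points, with an exact permutation p of 0.5, the smallest that 2 pairs allow. The labels do not tie equal replicate numbers to a shared culture or day. For the 6 results on the members, 56 of 74 alternative values stayed within a margin and 18 moved. The margins were the 95% interval for shares, 1.5 times for counts and 1 SD of the 2 libraries for the median fold. The other 27 alternative values belong to the 3 differences, which were compared by sign alone, and none changed sign. Total read depth, not given in the lists, limits how weak a peak each list can hold, so a missing Cbf1 peak is no measure of absent Cbf1.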
